A study of Rattus norvegicus with 36 samples.

Results

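Keratin transcripts were followed in the thyroid of 36 adult male Sprague Dawley rats, an outbred laboratory strain, 24 h after 1 intravenous injection of the beta-emitting iodine isotope 131I or after mock treatment. The members were all non-control array probes whose RefSeq transcript maps to a symbol made of Krt and a number, with the keratin-associated Krtap genes left out. This gave 44 genes of 15154 with a symbol on the array, measured by 46 of the 30367 probes. Injected activities of 4700, 1300, 760, 340, 260, 170, 88 or 9 kBq were given to 4 rats each, and 4 controls received no 131I (0 kBq), with 1 thyroid RNA sample per rat on 1 Agilent 1-colour array, so the p-values below measure the spread between rats. The study's methods state that the rats were injected in ascending order of activity, with the controls mock-treated last, so injected activity and order of handling cannot be told apart. Values are log2 intensities relative to the 75th percentile of the same array, and they order the samples for a probe but not one probe against another.

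Keratins build the intermediate filaments of epithelial cells, and each filament pairs a type I with a type II chain. Simple epithelia such as the thyroid follicle use Krt8 (type II) with Krt18 (type I), often together with Krt7 and Krt19. In stratified epithelia such as the oesophagus, which lies against the thyroid behind the trachea, basal cells make Krt5 (type II) with Krt14 (type I), and the cells above them make Krt4 (type II) with Krt13 (type I). Krt16 and Krt17 belong to activated or appendage keratinocytes, Krt1 to cornifying epidermis, and the hair shaft and inner root sheath of the follicle have keratins of their own. The 46 probes fell into 6 for simple keratins, 3 for basal, 3 for mucosal suprabasal, 3 for activated, 6 for cornified and other suprabasal, 6 for inner root sheath and 12 for hair shaft keratins, and 7 were left unclassed. Krt10, Krt78 and Krt6a were not analysed here because no probe mapped to them. The 3 Krt6c probes may share signal with the near-identical other Krt6 copies and are uncertain as to gene.

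Keratins of very different tissues were measured in these samples. Krt4, Krt5, Krt80 and the hair keratin Krt33b were well above background on all 36 arrays, Krt19 and Krt14 on 35, Krt18 on 34, Krt8 on 32 and Krt13 on 28. In all, 25 of the 46 probes were well above background on at least 18 arrays, 15 on 1 to 8 arrays and 3 (Krt26, Krt84 and Krt42) on none. Between 60.1% and 88.5% of the probes of an array were well above background, and the highest share belonged to rat 4 at 340 kBq, the next highest being 77.0%. Thyroglobulin (Tg), the hormone precursor of the follicle, was well above background on all 36 arrays, but its level still ranged from -4.51 to 7.48. These are bulk samples, in which fewer cells of a type and less RNA per cell cannot be told apart.

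Krt13, the type I keratin of non-cornifying mucosa, was either high or low in a rat, with a wide empty interval between. In the controls it was -4.21, -5.71, 5.90 and -4.29 in rats 1 to 4, at 9 kBq -6.45, -5.33, 6.77 and 6.99, and at 88 kBq -4.72, 6.51, -5.70 and -4.21. At 170 kBq the values were -7.73, -5.80, -6.20 and 6.79, at 260 kBq 3.42, -0.32, 6.28 and 5.19, and at 340 kBq 5.91, -5.70, 5.91 and -4.63. At 760 kBq they were 6.51, 6.76, -5.02 and -4.78, at 1300 kBq -6.79, -6.02, 4.09 and -3.17, and at 4700 kBq -6.32, -3.24, -7.44 and -6.88. No array lay between -0.32 and 3.42, an interval of 0.254 of the whole range. Above it were 13 arrays, namely 1 of 4 control arrays, 2 of 4 at 9 kBq, 1 at 88 kBq, 1 at 170 kBq, 3 at 260 kBq, 2 at 340 kBq, 2 at 760 kBq, 1 at 1300 kBq and 0 at 4700 kBq. High and low rats thus occurred in the controls and in all irradiated groups but 4700 kBq. The pooled SD between rats of a group was 5.61, larger than that of 99.95% of all probes.

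Krt4, the type II partner of Krt13, was high in the same 13 rats. It was 5.82 in control rat 3 and between -5.55 and -3.47 in the other control rats. At 9 kBq it was -3.53, -3.87, 6.85 and 7.15, and at 260 kBq 3.40, -0.17, 6.35 and 5.07. At 4700 kBq it stayed between -5.09 and -2.99. Its own empty interval ran from -0.17 to 3.40, and its SD between rats was 5.0. Krt76, a suprabasal keratin of the palate and tongue, had its 11 highest values, from -1.64 to 2.45, in 11 of these 13 rats and was -5.10 and -3.58 in the others, rat 1 at 260 kBq and rat 3 at 1300 kBq.

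Krt18, the type I keratin of simple epithelium, ran mostly the other way. In the controls it was 4.01, 3.77, -4.29 and 4.0, at 9 kBq -6.05, 4.07, -1.23 and -5.13, and at 88 kBq 3.87, -3.42, 4.68 and 4.04. At 170 kBq it was 3.34, 3.93, -2.69 and 1.85, at 260 kBq 4.15, 4.86, -1.47 and -3.98, and at 340 kBq -0.39, 0.69, -1.15 and 3.66. At 760 kBq it was 0.11, -4.39, 4.73 and 4.04, at 1300 kBq -5.89, -3.01, 3.54 and 4.19, and at 4700 kBq 3.43, 3.99, -3.81 and 3.86. The widest empty interval, from 1.85 to 3.34, had 19 arrays above and 17 below and took up 0.136 of the range, too little for the arrays to be treated as separate clusters. Control rat 3, the only control with high Krt13 and Krt4, was also the only control with low Krt18. Krt8, the type II partner, was -6.42 in that rat and 0.58, -0.05 and 1.12 in control rats 1, 2 and 4, and at 4700 kBq it was -6.06 in rat 3 and between -0.17 and 0.48 in the other rats.

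Set side by side, Krt13 and Krt18 placed the arrays in 4 combinations, which are given as a description because they were read from the values themselves. High and low mean above and below the widest empty interval of each gene. For Krt18 that interval was too narrow to separate clusters, and low Krt18 ran from -6.05 to 1.85. Krt13 was high and Krt18 low on 11 arrays, Krt13 low and Krt18 high on 17, both were high on 2 (rat 1 at 260 kBq and rat 3 at 1300 kBq), and both were low on 6. On the 11 arrays Krt5 was between 2.07 and 4.45, Krt14 between 3.31 and 6.05 and Krt15, a further basal keratin, between 3.90 and 6.45, whereas Krt8 was between -6.42 and -1.07. On the 17 arrays Krt8 was between -0.98 and 1.17, Krt19 between -3.59 and -0.68 and Krt7 between -4.0 and 0.58. Outside the family, Sprr3, a cross-linked protein of the oesophageal cell envelope, ran from 3.13 to 6.33 on the 11 arrays and from -6.41 to -1.23 on the 17, while Tg ran from -2.78 to 6.83 and from 6.20 to 7.48. On the 6 arrays low in both (rat 1 at 9 kBq, rat 3 at 170 kBq, rat 2 at 340 kBq, rats 1 and 2 at 1300 kBq and rat 3 at 4700 kBq) the fast muscle myosin Myh4 lay between 7.43 and 8.55 and the epithelial adhesion gene Epcam between -6.09 and -2.58. The part of muscle and of other epithelia in the keratin values was not tested.

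**Figure D1:**
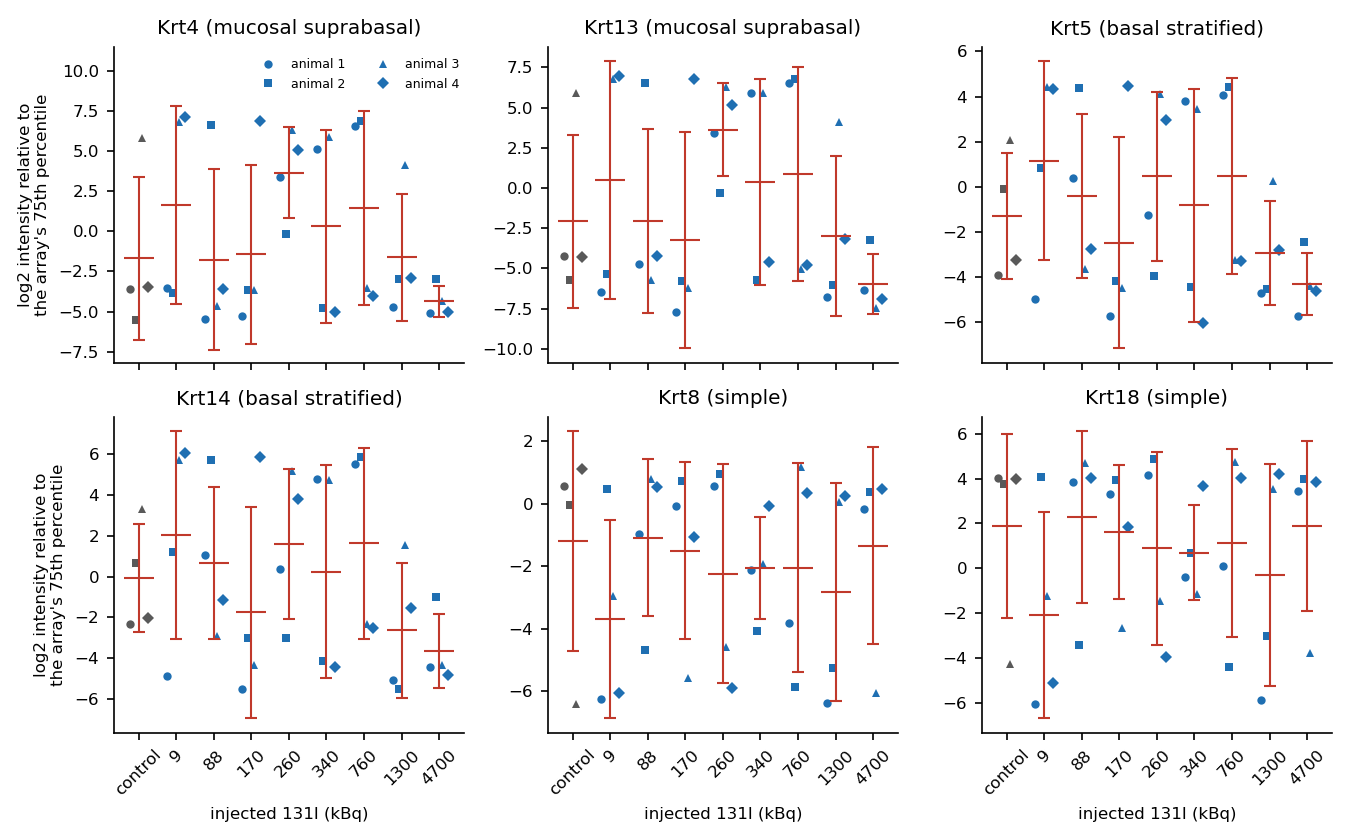
Level of 6 keratins (vertical axes, log2 intensity with the 75th percentile of each array set to 0) by injected 131I in kBq (horizontal axes, 0 for controls, drawn as control), 1 point per rat with a marker shape per rat number, red bars for group mean and SD (n = 4). Krt4 and Krt13 sit either above 3 or below 0 within most groups, Krt5 and Krt14 follow them, and Krt8 and Krt18 are low in many of the same rats.

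The plot by injected activity shows these values rat by rat. In it, the mean and SD of Krt13 at 260 kBq rest on 3 rats above the empty interval and 1 at its lower edge, and those at 4700 kBq on 4 low rats. The proximal promoters of Krt4, Krt8 and Krt18 are printed here, because Krt8 and Krt18 varied together across rats and Krt4 followed Krt13, while the 3 genes lie close together on chromosome 7. In the RefSeq annotation of the rat assembly GRCr8 the starts of Krt8 and Krt18, which are transcribed away from each other, are 25.8 kb apart, and those of Krt4 and Krt8 79.6 kb apart. Each sequence holds the 250 bases before the start, 5′ to 3′ on the strand of the gene, with capitals marking matches to a TATA box (TATAAA), an AP-1 element (TGANTCA) or a GC box (GGGCGG) on either strand. The regions are chr7:134930714-134930963, minus strand (Krt4), chr7:135010340-135010589, minus strand (Krt8), and chr7:135035918-135036167, plus strand (Krt18).
Krt4: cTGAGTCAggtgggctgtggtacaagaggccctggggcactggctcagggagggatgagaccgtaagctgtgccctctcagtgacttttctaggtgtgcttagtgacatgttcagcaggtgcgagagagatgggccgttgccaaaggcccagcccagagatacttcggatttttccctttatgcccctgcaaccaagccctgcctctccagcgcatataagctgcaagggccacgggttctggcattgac
Krt8: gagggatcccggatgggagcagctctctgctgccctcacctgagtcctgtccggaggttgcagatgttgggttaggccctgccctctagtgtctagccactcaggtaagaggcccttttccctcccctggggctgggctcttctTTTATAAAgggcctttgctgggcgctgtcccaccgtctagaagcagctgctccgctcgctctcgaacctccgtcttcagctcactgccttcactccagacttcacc
Krt18: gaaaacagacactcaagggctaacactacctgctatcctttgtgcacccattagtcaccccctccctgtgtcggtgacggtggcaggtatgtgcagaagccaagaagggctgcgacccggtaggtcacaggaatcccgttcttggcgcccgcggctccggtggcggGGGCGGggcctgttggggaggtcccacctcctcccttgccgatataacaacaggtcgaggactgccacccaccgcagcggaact
Krt4 held an AP-1 match 249 to 243 bases before the start, Krt8 overlapping TATA matches on both strands between 106 and 99 bases before it, and Krt18 a GC box 84 to 79 bases before it. Of all 33469 rat promoters of this length, 12.9% held the TATA letters, 6.34% the AP-1 letters and 30.5% the GC box letters. Among the 33 keratin genes with a promoter sequence, 17 held the TATA letters, 5 the GC box (Krt5, Krt18, Krt42, Krt75 and Krt87) and 1, Krt4, the AP-1 letters. A match describes letters in this window only.

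The basal keratins followed the mucosal ones in most rats. In rat 1 at 260 kBq and rat 3 at 1300 kBq, which had high Krt13, Krt5 was -1.25 and 0.25 and Krt14 0.37 and 1.56, below the 11 other rats with high Krt13. Krt5 was -3.92, -0.10, 2.07 and -3.23 in the controls, -4.97, 0.84, 4.40 and 4.33 at 9 kBq, and 0.40, 4.36, -3.64 and -2.74 at 88 kBq. Krt14 was -2.31, 0.65, 3.31 and -2.01 in the controls and -4.43, -0.98, -4.32 and -4.84 at 4700 kBq. Control rat 2, rat 2 at 9 kBq and rat 1 at 88 kBq stood between the high and the low rats, with Krt5 from -0.10 to 0.84, Krt14 from 0.65 to 1.19 and Krt17 from -0.95 to -0.25, although Krt13 was at most -4.72 in them. In the 20 other rats with low Krt13, Krt5 was at most -2.44, Krt14 at most -0.98 and Krt17 at most -3.49. The same 3 rats had the T cell gene Cd3e at 0.34 to 1.66, against -5.55 or lower in all 33 others, and Cd3g at 4.87 to 5.40 against -2.46 or lower. Foxn1, the regulator of thymic epithelium, was -6.52 to -5.22 in the 3 rats and -7.52 to -4.36 in the others. The 4 lymphoid genes, all with a probe, summed to at most 5.11 in the controls, 5.69 at 9 kBq and 5.40 at 88 kBq, from lowest sums of -3.04, -2.51 and -2.89, and to between -3.40 and -0.93 in the other groups. The part of lymphoid or thymic tissue in the basal keratin values was not tested.

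Krt16, Krt17 and Krt1 had their highest values in rats with high Krt13, but in rat 1 at 260 kBq and rat 3 at 1300 kBq Krt16 was -9.16 and -8.53 and Krt1 -5.18 and -2.53. Among the other cornified and suprabasal keratins, Krt80 had r = 0.79 with Krt13 over 36 arrays (deviations from group means). It was well above background on all 36 arrays. Krt2, Krt9, Krt24 and Krt77 did not follow Krt13 closely, with r of -0.04, -0.06, 0.18 and 0.45. Of these, Krt9, Krt24 and Krt77 were well above background on only 5 arrays each. Krt17 was -4.82, -0.95, 1.0 and -4.82 in the controls and -6.51, -3.52, -8.28 and -8.39 at 4700 kBq. Krt16 was well above background on 8 arrays, and its highest values were -2.40 in rat 1 at 760 kBq and -2.57 in rat 4 at 170 kBq. Krt1, the first keratin of cornification, was -7.04, -6.26, -0.15 and -5.95 in the controls and highest, at 2.47, in rat 3 at 9 kBq. The 3 Krt6c probes ranged up to 2.66, 3.65 and 4.80, all in rat 4 at 170 kBq, and were well above background on 18 to 20 arrays. Krt75, a companion-layer keratin of the hair follicle that was classed with the activated keratins, went with Krt18 instead and was -0.95, -2.92, -7.73 and -0.46 in the controls.

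Krt7 and Krt19, which line ducts and airways as well as glands, varied less tightly with Krt18. Krt19 was -0.93, -1.81, -4.84 and -1.76 in the controls and highest in rat 4 at 170 kBq (0.97), followed by rats 1 and 3 at 340 kBq (-0.41 and -0.52). Krt7 was highest in rat 2 at 9 kBq (0.58), rat 4 at 170 kBq (0.53) and rat 1 at 88 kBq (0.35). Rat 4 at 170 kBq also had the highest level of Bpifa1, a secretory gene of the upper airway, at 7.27, and rats 1 and 3 at 340 kBq had 5.19 and 4.87. Rat 2 at 340 kBq had the second highest Bpifa1, 6.54, with Krt19 at -1.94 and Krt7 at -6.54. The other airway genes did not all follow Bpifa1 in rat 4 at 170 kBq and rats 1 and 3 at 340 kBq. Scgb3a1 was 2.57, -4.74 and -2.15 in them, and Scgb1a1 -3.11, -5.79 and -4.08. Foxj1 was -6.58, -8.21 and -6.97, and Tekt1 -6.12, -5.38 and -5.14. The 5 of 6 airway genes with a probe summed to between -2.64 and 7.33 at 170 kBq and -2.14 and 6.63 at 340 kBq, and to between -3.61 and 1.45 in the controls. The top sums at 170 and 340 kBq were close to Bpifa1 alone, 7.27 and 6.54. The part of airway epithelium in the Krt7 and Krt19 values was not tested. Krt20, an intestinal and urothelial keratin, and Krt23 are listed as simple keratins but did not follow Krt18. Krt23 followed Krt13, at -0.45 in control rat 3 against -7.75 to -6.56 in the other control rats. Krt20, well above background on 17 arrays, had r = 0.66 with Krt13 and -0.13 with Krt18 (36 arrays, deviations from group means).

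**Figure D2:**
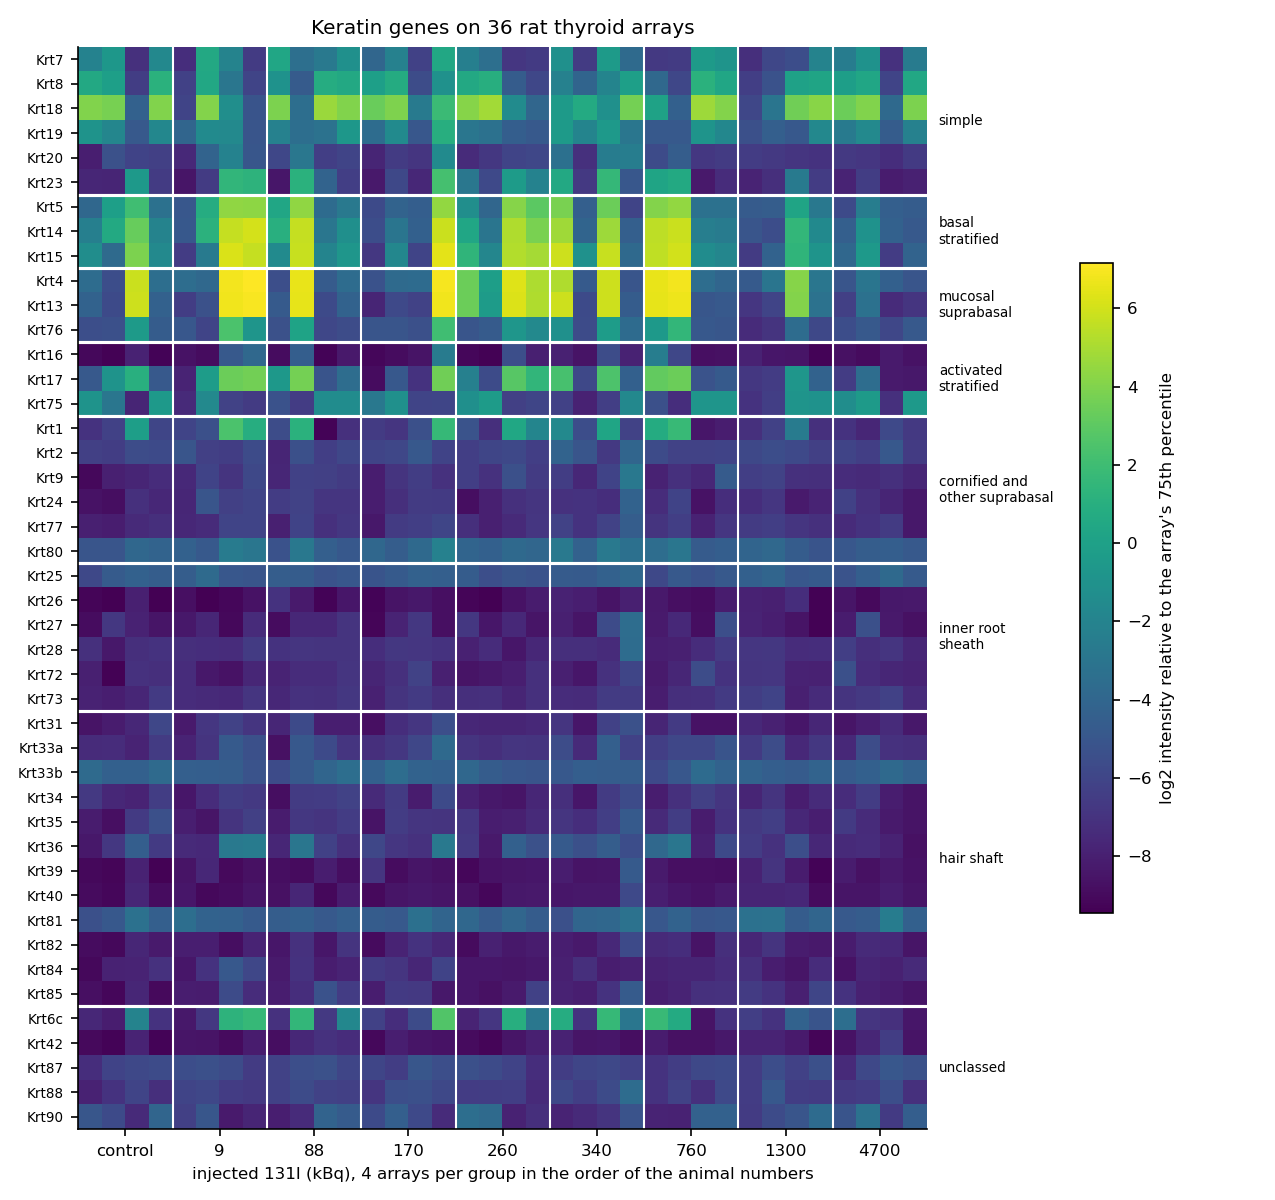
Level (colour, log2 intensity with the 75th percentile of each array set to 0) of the 44 keratin genes (rows, by class, the brightest probe of a gene) on the 36 arrays (columns, 4 per group by rat number, with injected 131I in kBq below). Bright columns of stratified keratins, such as rats 3 and 4 at 9 kBq, recur in most groups, and most hair shaft and inner root sheath rows stay dark, with Krt33b, Krt81 and Krt25 at an even intermediate level and Krt36 brighter in rats with high Krt13, up to -2.57.

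The heatmap sets all 44 genes beside each other and shows that many stratified keratins were high in the same rats. The columns were not uniform. Rat 1 at 260 kBq had Krt13 at 3.42 but Krt76 at -5.10 and Krt16 at -9.16. Krt75, classed with the activated keratins, had r = -0.40 with Krt13 over 36 arrays (deviations from group means). Most hair keratins gave little signal and little contrast. Krt33b was between -5.77 and -3.46 on all arrays with an SD between rats of 0.54, and Krt81 was well above background on 35 arrays with an SD of 0.70. Of the inner root sheath keratins only Krt25 exceeded background on 9 or more arrays, on 34, with an SD of 0.48. Krt36 (15 arrays) and Krt33a (13 arrays) were the other hair shaft keratins above background on 9 or more arrays, and Krt36, with an SD of 1.77, ran between -5.32 and -2.57 on the 11 arrays with high Krt13 and low Krt18 against -8.67 to -5.54 on the 17 arrays of the opposite kind. Rat 4 at 340 kBq, the rat with most probes above background, had the highest value of Krt24 (-4.20), Krt28 (-3.56), Krt9 (-2.77) and Krt77 (-4.52) of all 36 arrays.

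**Figure D3:**
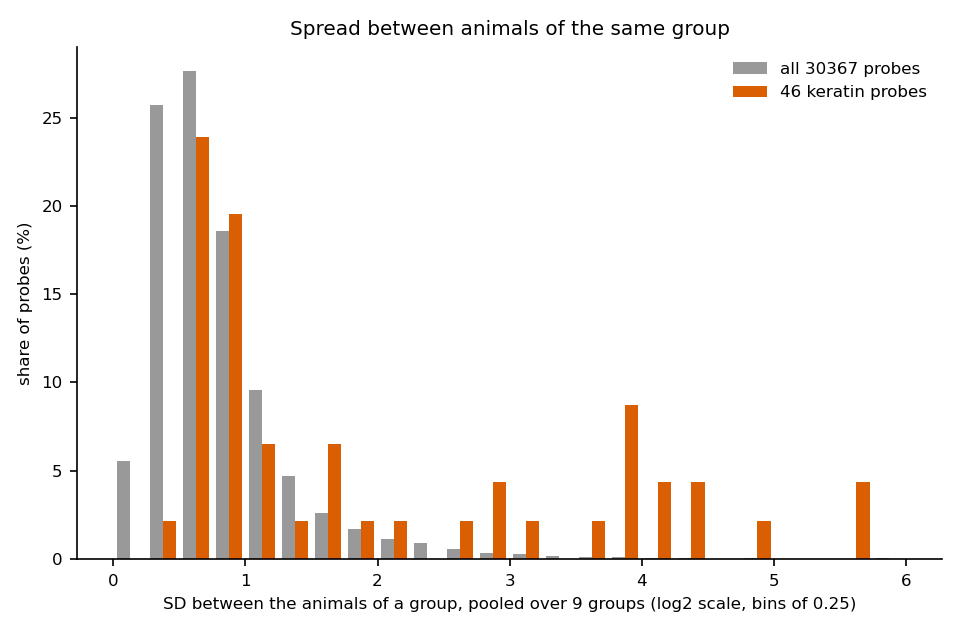
Share of probes in percent (vertical axis) by SD between rats of the same group, pooled over the 9 groups, in bins of 0.25 on the log2 scale (horizontal axis), for all 30367 probes (grey) and the 46 keratin probes (orange). Most probes lie near the overall median of 0.67, whereas 13 keratin probes lie above 3.

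The distribution of the spread put numbers on this difference between rats. The median SD between rats of a group was 0.67 over all probes and 1.05 over the 46 keratin probes. An SD above 3 was found for 319 of the 30367 probes and for 13 of the 46 keratin probes, which were Krt4, Krt5, Krt8, Krt13, Krt14, Krt15, Krt17, Krt18, Krt23, Krt1 and the 3 Krt6c probes. The share of the sum of squares that lay between the 9 groups was 21.7% for the median keratin probe and 19.5% for the median of all probes. An omnibus limma F test over the 9 groups gave an adjusted p of 0.989 as the smallest among keratins, where 0.0132% of all probes passed an adjusted p of 0.01. At an unadjusted p under 0.05 there was 1 keratin, the hair keratin Krt84, which was well above background on no array, against 2.69% of all probes.

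The question of the design was whether 131I changed the transcripts of the thyroid at each injected activity. For Krt13 the mean was -2.08 ± 5.36 (SD, n = 4) in the controls, 3.64 ± 2.89 at 260 kBq and -5.97 ± 1.87 at 4700 kBq. The difference from the controls was 5.72 (SE 3.81) at 260 kBq, with an adjusted p of 0.999991 in limma and an exact two-sided permutation p of 0.114. At 4700 kBq it was -3.89 (SE 3.81), with an adjusted p of 0.999868 in limma and an exact permutation p of 0.171. The other differences for Krt13 were 2.57 at 9 kBq, 0.05 at 88 kBq, -1.16 at 170 kBq, 2.45 at 340 kBq, 2.94 at 760 kBq and -0.90 at 1300 kBq, each with an SE of 3.81. None passed the test, and the difference at 260 kBq was close to the pooled SD between rats of a group, 5.61. The signs at 88, 170 and 1300 kBq changed with the normalization or a batch term.

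Krt18 and Krt5 gave the same picture. Krt18 differed from the controls (mean 1.87 ± 4.11, SD, n = 4) by -3.96 (SE 2.69, exact permutation p = 0.257) at 9 kBq, by -2.16 at 1300 kBq and by -0.0037 at 4700 kBq. Its remaining differences lay between -1.17 (340 kBq) and 0.42 (88 kBq). With a slide or scan-day term the Krt18 differences at 260, 760 and 4700 kBq turned positive. Krt5 differed from the controls (mean -1.29 ± 2.79, SD, n = 4) by 2.44 (SE 2.57) at 9 kBq, by 1.76 at 260 kBq and 1.78 at 760 kBq, and by -3.0 (exact permutation p = 0.143) at 4700 kBq.

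**Figure D4:**
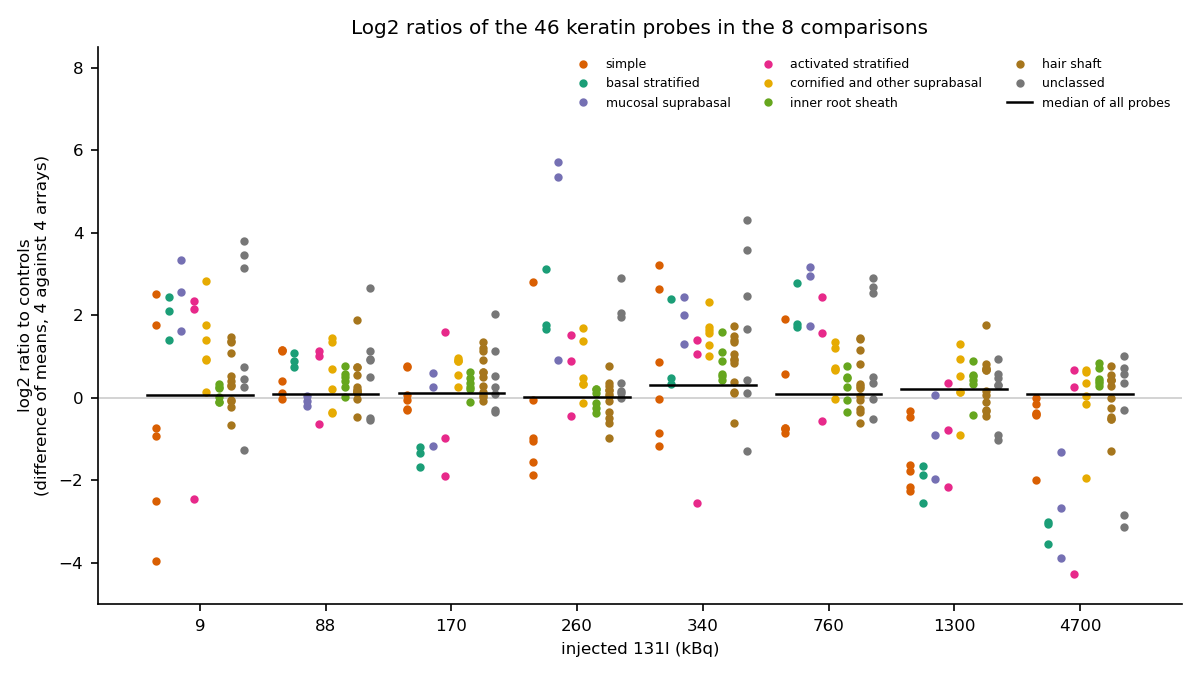
Log2 ratio to the controls (vertical axis, difference of means, 4 against 4 arrays) of the 46 keratin probes, coloured by class, in the 8 comparisons (horizontal axis, injected 131I in kBq), with the median of all 30367 probes as black lines. Mucosal suprabasal ratios reach 5.72 at 260 kBq (Krt13) and -3.89 at 4700 kBq, while hair shaft and inner root sheath ratios lie between -1.29 and 1.88.

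The plot of the ratios gives the classes beside the median of all probes. The mucosal suprabasal median ratio was 5.35 at 260 kBq, 2.94 at 760 kBq, 2.57 at 9 kBq and -2.68 at 4700 kBq, and the basal median was 1.76, 1.78, 2.11 and -3.06 in these comparisons. The simple keratin median was -1.02, -0.73, -0.83 and -0.38. Over all 46 keratins the median ran from -0.00385 at 4700 kBq to 1.06 at 340 kBq, and over all probes from 0.03 at 260 kBq to 0.31 at 340 kBq. Besides 340 kBq, the median of all probes was above 0.1 at 1300 kBq (0.22) and 170 kBq (0.12), and the ratios in these comparisons are read against it. These medians rest on the few rats described above, so they describe these samples.

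No keratin passed an adjusted p under 0.01 with a fold of at least 1.5 in any of the 8 limma comparisons, and the background was 0% of all 30367 probes in each. At an unadjusted p under 0.05 the limma fit gave as higher than in the controls 2 keratin probes at 9 kBq (background 2.77% of probes), 3 at 88 kBq (2.99%), 2 at 170 kBq (2.16%), 1 at 260 kBq (0.787%), 13 at 340 kBq (13.2%), 0 at 760 kBq (1.5%), 2 at 1300 kBq (3.84%) and 1 at 4700 kBq (1.28%). It gave 0 keratin probes as lower in each of these comparisons, where the backgrounds were 0.454%, 0.372%, 0.201%, 0.336%, 0.438%, 0.148%, 0.339% and 0.372%. The 13 at 340 kBq were Krt2, Krt9, Krt20, Krt24, Krt26, Krt28, Krt39, Krt40, Krt77, Krt80, Krt82, Krt85 and Krt88, mostly probes near background, and the count was 4 without rat 4 of that group, 7 without control rat 1 and 6 without control rat 2. At 9 kBq it was 8 without rat 1, 6 without rat 2 and 4 without control rat 3, at 1300 kBq 7 without control rat 3, and in the other comparisons between 0 and 5 whichever rat was left out. The smallest adjusted p of a keratin in any comparison was 0.199, for Krt88 at 340 kBq (limma).

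Some keratins, most of them dim, separated the 4 rats of a group from all 4 controls without passing the test. From 9 to 4700 kBq in ascending order, 0, 2, 0, 1, 1, 1, 2 and 0 keratin probes lay wholly above the controls (1.48%, 1.67%, 1%, 0.823%, 4.04%, 1.38%, 1.07% and 0.715% of all probes). Wholly below lay 1 keratin probe at 9 kBq (0.247%) and 1 at 340 kBq (0.304%), and 0 at 88 kBq (0.194%), 170 kBq (0.244%), 260 kBq (0.244%), 760 kBq (0.247%), 1300 kBq (0.188%) and 4700 kBq (0.553%). Krt33b was -3.70, -4.33, -4.36 and -3.71 in the controls, -4.40, -4.49, -4.58 and -5.22 at 9 kBq, and -4.91, -4.50, -4.57 and -4.58 at 340 kBq. It was lower than every control in both groups, by -0.65 (SE 0.38, adjusted p = 0.999 in limma) and -0.62 (adjusted p = 0.496 in limma). The exact permutation p of 0.0286 is the smallest that 4 against 4 arrays allow. Every keratin picked for lying wholly beyond the controls has this p, so it adds no support. Krt77, an epidermal keratin, was -8.01, -8.14, -7.45 and -7.22 in the controls, -6.16, -7.04, -6.19 and -4.52 at 340 kBq, and -6.56, -6.40, -6.89 and -7.16 at 1300 kBq, wholly above the controls both times. Krt9, a keratin of the footpad, lay wholly above the controls at 260 and 1300 kBq, Krt33a at 760 kBq, and Krt24 and Krt28 at 88 kBq. Krt9 and Krt28 were well above background on none of the arrays compared, so no fold is given for them, and Krt77 and Krt24 on 1 array of the irradiated group at most and on no control array. Krt33a, well above background on 1 of 4 control arrays and 3 of 4 at 760 kBq, was -7.39, -7.35, -7.82 and -6.58 in the controls and -6.38, -5.92, -5.93 and -5.17 at 760 kBq, a measured difference of 1.44 (SE 0.74, adjusted p = 0.999991 in limma).

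The transcripts of keratins known to pair varied together across rats, as did some but not all of the other genes tested with them. In all, 9 relations were computed, which gave 14 tests after arrays with a wide empty interval had been separated, and p-values were adjusted over the 14. Krt8 and Krt18 had r = 0.97 and rho = 0.95 over 36 arrays (permutation p = 1e-05, the smallest that 100000 permutations can give, adjusted 3.5e-05). Krt5 and Krt14 had r = 0.99 and rho = 0.98 (adjusted permutation p = 3.5e-05). Without the 2 arrays farthest from the median of the first gene, r was 0.97 and 0.99, and within the 5 slides it ran from 0.952 to 0.996 and from 0.987 to 0.998. Krt4 and Krt13 had r = 0.98 on the 13 high arrays (rho = 0.98, adjusted permutation p = 3.5e-05) and r = 0.73 on the 23 low arrays (rho = 0.51, adjusted permutation p = 0.00114), where r was 0.51 without the 2 farthest arrays. Both chains of each pair thus varied together, and for Krt4 and Krt13 also within the high rats.

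Krt4 and Krt5 had r = 0.91 on the 13 high arrays (rho = 0.91, adjusted permutation p = 0.00035), which became 0.70 without the 2 farthest arrays. On the 23 low arrays they had r = -0.02 (rho = 0.23, adjusted permutation p = 0.914, 0.19 without the 2 farthest). The difference between high and low arrays was not itself tested. On deviations from the group means r was 0.80 on the high arrays (adjusted permutation p = 0.00112, 0.53 without the 2 farthest). It was 0.60 on the low ones (adjusted permutation p = 0.00375, 0.47 without the 2 farthest). These group means were taken over high and low rats together, so a rat's deviation also depends on how many rats of its group were high. The values on deviations therefore cannot show whether Krt4 and Krt5 vary together within the high or the low rats. Krt8 and Krt4 had r = -0.58 on the high arrays (rho = -0.36, adjusted permutation p = 0.050), which became -0.02 without the 2 farthest arrays and so rested on them, and r = 0.09 on the low arrays (rho = 0.35, adjusted permutation p = 0.729). Krt8 and the epithelial adhesion gene Epcam had r = 0.85 over 36 arrays (rho = 0.93, adjusted permutation p = 3.5e-05, 0.84 without the 2 farthest, 0.72 to 0.96 within slides). Krt4 and Sprr3 had r = 0.89 on the high arrays (rho = 0.88, adjusted permutation p = 0.000252, 0.74 without the 2 farthest). On the low arrays they had r = 0.74 (rho = 0.45, adjusted permutation p = 0.00312), which became 0.32 without the 2 farthest and rested on them. Slides held too few arrays to give the relations of the separated arrays within a slide. Krt5 and Trp63 (Tp63 in the annotation), the regulator of basal cell fate, had r = -0.13 (rho = -0.19, adjusted permutation p = 0.510, -0.10 without the 2 farthest, -0.64 to 0.56 within slides).

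**Figure D5:**
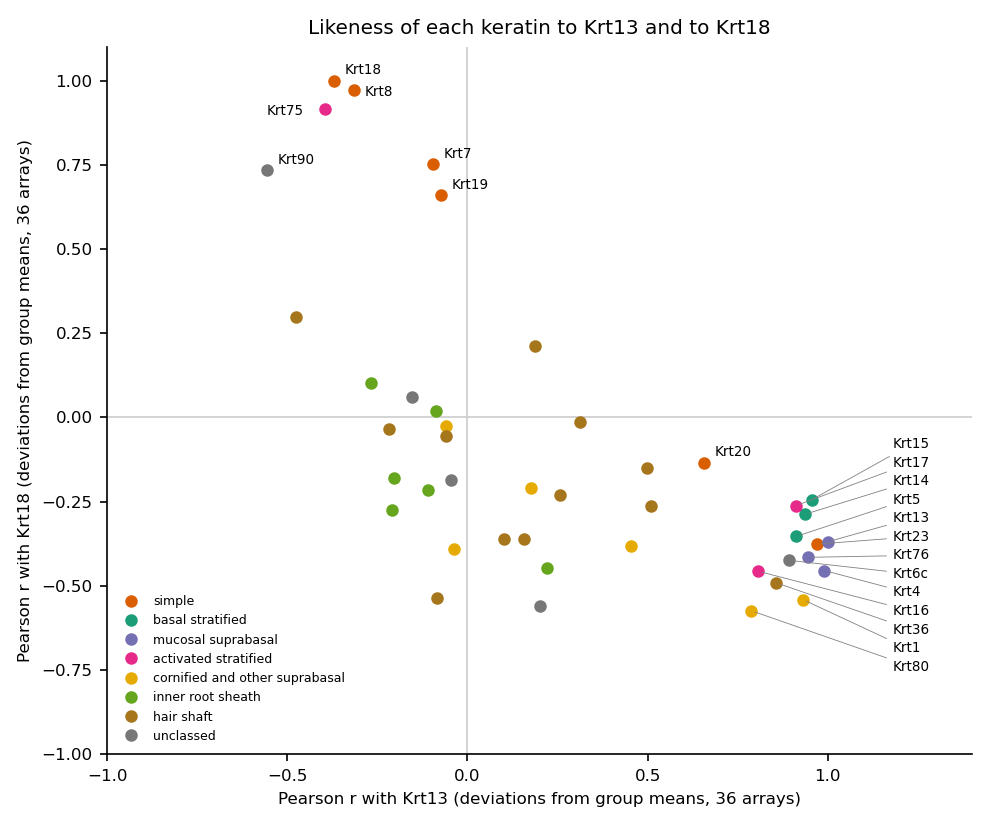
Pearson r with Krt13 (horizontal axis) and with Krt18 (vertical axis) of each keratin gene over 36 arrays, computed on deviations from the group means, coloured by class. Rats with high and with low Krt13 are pooled. Most stratified keratins and Krt23 lie at the lower right. Krt8, Krt75, Krt7 and Krt90 lie at the upper left, and most hair shaft and inner root sheath keratins near the centre.

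The map of likeness placed 12 of the other 42 keratin genes above r = 0.7 with Krt13, namely Krt4, Krt23, Krt15, Krt76, Krt14, Krt1, Krt5, Krt17, Krt6c, Krt36, Krt16 and Krt80. Another 4 (Krt8, Krt75, Krt7 and Krt90) were above 0.7 with Krt18, and 26 with neither. These correlations are descriptions over 36 arrays of 1 sample each, whose values share the array's depth and tissue make-up. They pool the rats with high and with low Krt13. They therefore cannot show whether a gene varies with Krt13 within the high or the low rats. The same holds for every r with Krt13 over 36 arrays given here. Of all listed genes the patterns most like Krt13 were those of Krt4 (r = 0.99), Sprr3 (0.98), Cnfn (0.98), Krt23 (0.97) and Ly6d (0.97). Those most like Krt18 were Krt8 (r = 0.97), the sodium-iodide symporter Slc5a5 (0.92), the thyroid transcription factor Pax8 (0.92), Krt75 (0.92) and the thyroid transcription factor Nkx2-1 (0.91).

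Keratin filaments are tied to the cell membrane by desmosomes and hemidesmosomes, and the genes of these junctions varied with Krt13, with Krt18 or with neither. Among listed junction genes with a probe, the envelope and desmosome linkers periplakin (Ppl, r = 0.93 with Krt13), plakoglobin (Jup, 0.91), envoplakin (Evpl, 0.84) and plakophilin 3 (Pkp3, 0.76) went with Krt13, as did desmoglein 3 (Dsg3, 0.93), Perp (0.73) and integrin beta 4 of the hemidesmosome (Itgb4, 0.73). The tetraspanin Cd151 (0.77), desmocollin 2 (Dsc2, 0.68) and desmocollin 3 (Dsc3, 0.58) varied more with Krt18 than with Krt13 (-0.46, 0.26 and 0.27). Plakophilin 2 (Pkp2) had r = -0.73 with Krt13 and 0.59 with Krt18. Plectin (Plec) had r = 0.20 with Krt13 and -0.87 with Krt18, and desmoglein 4 (Dsg4) 0.18 and -0.53. These values are descriptions over the 36 arrays. In the comparisons with the controls, none of the 10 of 15 desmosome genes, 3 of 6 hemidesmosome genes and 12 of 13 other intermediate filament genes with a probe was called. At an unadjusted p under 0.05 in limma, 1 desmosome gene was higher at 340 kBq, 1 other intermediate filament gene was higher at 88 kBq and 1 at 340 kBq, and no hemidesmosome gene passed, where 2.99% of all probes were higher at 88 kBq and 13.2% at 340 kBq.

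Of the markers of neighbouring tissues, most squamous genes varied with Krt13 and those of muscle, airway and lymphoid tissue less or not. The summed level of the 8 squamous genes with a probe, of 12 listed outside the keratins, ran from 1.11 to 6.22 in the controls. It ran from 1.75 to 6.83 at 260 kBq and from 1.33 to 2.14 at 4700 kBq. Its tops were 4.49 at 1300 kBq and 6.98 to 8.05 in the remaining groups. The low ends of these sums, and all sums at 4700 kBq, were mostly Trp63, which did not follow Krt13. On the 23 arrays with low Krt13, Cnfn was at most -1.20 and Sprr3 at most -1.23. The 2 of 3 fast muscle genes with a probe summed to between 6.53 and 7.99 in the controls and between -2.46 and 9.35 over the irradiated groups, and had r = -0.56 (Myh4) and -0.49 (Actn3) with Krt18. The slow muscle myosin genes Myh7 and Myl2 had r = -0.09 and 0.04 with Krt13 and -0.03 and -0.06 with Krt18, and Cd3e had -0.24 and 0.27. Of the airway genes, Bpifa1 had 0.34 with Krt13 and 0.01 with Krt18, Scgb3a1 0.12 and -0.11, and Scgb1a1 -0.03 and -0.09. Foxj1 had -0.50 and 0.40, and Tekt1 -0.44 and -0.35. Parathyroid and C cell genes varied with Krt18, with r = 0.86 (Casr), 0.79 (Pth), 0.66 (Gcm2), 0.85 (Calca), 0.81 (Chga) and 0.48 (Scg2). Their r with Krt13 lay between -0.54 (Calca) and -0.23 (Gcm2). None of these genes, nor of the 8 simple epithelial, 5 airway, 3 parathyroid, 3 C cell, 4 lymphoid, 1 thymic and 4 slow muscle genes with a probe, was called in any comparison in limma. Trp63 was flat across rats, between 1.0 and 2.45, while the other squamous genes named above followed Krt13.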

How the data were processed

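The deposited scanner output of 36 Agilent 8x60K rat arrays (1 colour, 5 slides, 2 scan days) holds processed intensity values, background-subtracted by Feature Extraction 10.7.3.1, per the file headers. The deposited table of intensity values, which has the same distribution on every array and was made by the authors (Partek is named in their processing notes), was an alternative. Here log2 processed intensity minus the 75th percentile of the array was used, leaving out control spots and outlier spots (331 to 1365 of 58717 spots per array; 0 saturated), averaging spots of a probe. The 75th percentile lay between 1564 and 4288 intensity units. The number of arrays limits the precision. Accessions were named through RefSeq.

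Groups came from the labels. A single limma 3.58.1 fit (R 4.3.3) over all arrays, 1 mean per group, compared 8 irradiated groups with the controls, with Benjamini-Hochberg adjustment over 30367 probes within a comparison. Called means adjusted p under 0.01 and a fold of at least 1.5. Exact permutation tests compared 4 with 4 arrays for single genes, and correlations used 100000 permutations with adjustment over all relations, of which 1 is not reported here. The scripts were tested on simulated data.

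Members, classes and gene lists were chosen with earlier results of these data known. Genes named are the main simple, basal, mucosal, activated and cornified keratins, hair and inner root sheath keratins above background on at least 9 arrays, per comparison up to 2 higher and 2 lower keratins whose 4 arrays lay beyond all controls, and the 5 genes most like Krt13 and Krt18. Other keratins were named after their values were seen. The brightest probe stands for a gene. Animal numbers recur in each group, and the comparisons do not pair them. Alternatives were the normalization, background correction, dim-probe filter, batch terms, replicate block, array weights, thresholds and leaving out each rat.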

Additional observations from a re-analysis of the deposited data

Results flagged for a closer look

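In groups of 4 rats, 1 rat lay far from the others, by Dixon's criterion, in 20 of 189 combinations of gene and group over 21 genes. Chance alone picks out about 1 in 20 groups, and genes that vary together pick out the same rat.

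Control rat 3 was apart for Krt13 (5.90), Krt1 (-0.15), Krt18 (-4.29) and Krt8 (-6.42). Rat 2 at 88 kBq was apart for Krt13 (6.51), Krt4 (6.62), Krt15 (5.75) and Krt18 (-3.42). Rat 4 at 170 kBq was apart for Krt13 (6.79), Krt4 (6.89), Krt5 (4.45) and Krt16 (-2.57). In control rat 3 and rat 2 at 88 kBq the stratified keratins were the high values and the simple keratins the low ones. In rat 4 at 170 kBq, Krt19 (0.97) was the highest of all 36 arrays. At 4700 kBq, rat 3 was apart for Krt8 (-6.06) and Krt18 (-3.81), with Krt13 low in all 4 rats of that group, and rat 2 for Krt14 (-0.98).

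Among dim keratins, rat 4 at 340 kBq was apart for Krt24 (-4.20) and Krt28 (-3.56), and this rat also had the largest share of probes above background. Krt28 was apart in rat 4 at 9 kBq (-6.58) and in control rat 2 (-8.40), and Krt33a in rat 2 at 260 kBq (-7.21).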

How the results depend on the processing

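No keratin was called in any comparison under any alternative but array weights, which called 10 keratin probes at 9 kBq (7.75% of all probes were called there) and gave 3 keratins at an adjusted p under 0.01 in the omnibus test (1.56% of all probes). The weights ran from 0.264 for rat 4 at 340 kBq to 4.55 for rat 4 at 9 kBq, and they made Krt18 pass at 9 kBq (-7.21). Counts at an unadjusted p under 0.05 moved with the setting, between 4 and 23 at 340 kBq, 0 and 30 at 9 kBq and 0 and 28 at 760 kBq.

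Of the ratios of Krt13, Krt5 and Krt18 and of the separated keratins, 672 values kept their direction and stayed uncalled, and 46 reversed. Krt18 at 9 kBq with array weights (-7.21) kept its direction but was called. For Krt13 the reversed values were -0.067 (median centring) and -0.64 (scan day) at 88 kBq, 0.11 (slide) at 170 kBq, and 0.37 (slide) and 2.88 (array weights) at 1300 kBq. For Krt18 they were 0.40 (slide) and 0.18 (scan day) at 260 kBq, 0.52 and 0.41 at 760 kBq, and at 4700 kBq 0.69 (slide), 0.58 (scan day), 0.0428 (quantile normalization), 0.0345 (median centring), 0.0378 (the authors' table) and 0.0409 (array weights). For Krt5 they were -0.11 (quantile normalization) and -0.12 (the authors' table) at 340 kBq and 0.74 (array weights) at 1300 kBq. Leaving out 1 rat gave Krt13 -2.80 to 2.71 at 88 kBq, -4.50 to 1.5 at 170 kBq and -3.25 to 1.76 at 1300 kBq. It gave Krt5 -0.70 to 2.01 at 88 kBq and -1.06 to 2.23 at 340 kBq. Krt18 ran from -1.64 to 2.32 at 88 kBq, -2.32 to 1.17 at 170 kBq, -3.04 to 0.64 at 260 kBq, -2.80 to 1.09 at 760 kBq and -2.06 to 1.89 at 4700 kBq.

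Of the relations, Krt8 with Krt4 on the high arrays passed with median centring (-0.63), and on the low arrays reversed on deviations from group means (-0.16). Krt4 with Krt5 on the low arrays reversed on deviations, where it passed (0.60), and with quantile normalization (0.11). The cause of these changes was not tested. The group means mix high and low rats, so values on deviations cannot show covariation within the high or the low arrays. Same-numbered rats did not deviate together (mean r -0.02 over 144 pairs, from -0.71 to 0.76), so the numbers do not pair the samples. With the replicate block 0 keratins were called, and 12 passed an unadjusted p under 0.05 at 340 kBq. With 4 rats a group and an SD above 3 for the variable keratins, differences of several log2 units lie within the spread between rats. Of the dim probes, 15 were above background on 1 to 8 arrays and 3 on none.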
